A study of Mus musculus with 38 samples.

Results

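The genes examined were 35 genes of white and brown fat cells, out of 20018 genes with a symbol on the array. They were listed by name, with earlier results of these data known, and each was represented by its brightest probe. The genes were measured in the lung and the forestomach of male Muta™Mouse, a transgenic strain that carries a reporter gene for mutation assays, aged about 10 weeks. All animals were gavaged daily for 28 days, the controls (D0) with olive oil alone and the others with dibenz(a,h)anthracene (DBahA), a polycyclic aromatic hydrocarbon, in olive oil. The low dose (D1) was 6.25 mg/kg-bw/day, the middle dose (D2) 12.5 and the high dose (D3) 25, and tissues were taken 72 h after the last gavage. There were 5, 5, 4 and 5 lungs in the groups from D0 to D3, and 5, 5, 4 and 4 forestomachs of the same animals. RNA came from random pieces of frozen tissue, so the amount of fat or other tissue attached to a piece is part of each measurement. Every value is a log2 ratio of the tissue RNA (Cy5) over a reference RNA pooled from 11 mouse cell lines (Cy3). A value of 0 means equal signal in both channels, which does not by itself show absence. Background was not subtracted, so a gene near background in both channels also lies near 0. Levels of different genes cannot be set against each other.

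Fat cells store triglyceride in lipid droplets. White fat cells release hormones such as adiponectin, leptin and resistin and, on demand, fatty acids, whereas brown fat cells burn fatty acids to make heat through the mitochondrial uncoupling protein Ucp1. Both kinds of cell are made under the control of the transcription factors Pparg and Cebpa. Several of the genes are not particular to fat. Cd36 and Lpl serve fatty acid uptake in capillaries, muscle and macrophages, Fabp4 is also an endothelial gene, Dgat2 and Cidea act in sebaceous and other lipid-making epithelia, and Cox8b is a respiratory chain subunit of heart and skeletal muscle as well as of brown fat. In a piece of whole tissue, fewer fat cells and less RNA per fat cell cannot be told apart.

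The promoters of 4 genes are shown because these genes carry the mouse-to-mouse and dose patterns described below, namely the fat cell hormone adiponectin (Adipoq), the secreted protease adipsin (Cfd), resistin (Retn) and the lipogenic regulator Thrsp. Each line gives the 250 bases before the RefSeq start site (build GRCm38.p6), 5′ to 3′ on the strand of the gene. Capitals mark matches on either strand to the CCAAT box (CCAAT) and to the letters TTGCNNCAA, taken here as a C/EBP-like pattern. Other spellings of the C/EBP site were not searched.
Adipoq (chr16:23146286-23146535, plus strand): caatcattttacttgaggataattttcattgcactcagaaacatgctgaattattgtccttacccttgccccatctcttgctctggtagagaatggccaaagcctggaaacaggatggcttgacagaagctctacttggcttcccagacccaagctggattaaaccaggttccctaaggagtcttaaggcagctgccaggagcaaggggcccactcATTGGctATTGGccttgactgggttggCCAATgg
Cfd (chr10:79890603-79890852, plus strand): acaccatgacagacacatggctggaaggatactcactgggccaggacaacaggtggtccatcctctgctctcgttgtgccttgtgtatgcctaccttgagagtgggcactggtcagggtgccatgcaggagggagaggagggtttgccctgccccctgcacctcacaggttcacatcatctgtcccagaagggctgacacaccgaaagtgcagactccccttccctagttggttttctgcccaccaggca
Retn (chr8:3655520-3655769, plus strand): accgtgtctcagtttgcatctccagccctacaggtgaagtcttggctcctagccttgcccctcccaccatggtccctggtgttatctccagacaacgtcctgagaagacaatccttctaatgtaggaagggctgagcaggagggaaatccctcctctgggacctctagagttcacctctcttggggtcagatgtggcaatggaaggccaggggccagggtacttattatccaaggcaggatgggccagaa
Thrsp (chr7:97417551-97417800, minus strand): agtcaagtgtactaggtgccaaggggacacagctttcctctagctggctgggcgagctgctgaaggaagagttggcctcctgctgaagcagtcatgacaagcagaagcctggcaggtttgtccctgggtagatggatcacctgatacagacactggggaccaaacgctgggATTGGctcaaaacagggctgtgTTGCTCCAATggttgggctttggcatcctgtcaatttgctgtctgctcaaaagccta
The window of Adipoq held CCAAT 3 times, starting 34, 27 and 7 bases before the start. That of Thrsp held CCAAT 2 times and 1 match to TTGCNNCAA, which overlapped the CCAAT nearer the start. The windows of Cfd and Retn held neither. Over the 24 listed genes that matched the RefSeq promoter table by symbol, CCAAT occurred in 7, against 33.8% of all 32851 promoters. TTGCNNCAA occurred in 2 (Thrsp and Dio2), against 1.74% of all promoters, and TATAAA in 3, against 12.4%. The direct repeat bound by PPAR and RXR, written as its exact consensus, occurred in 0 of the 24 and in 0.0335% of all promoters. A gene counted if any of its promoters held a match, and 8 of the 24 genes had several starts, whereas the shares are per promoter. These matches describe letters in a short window.

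The labelled tissues carried their defining genes. The mean over 5 markers of alveolar type 2 cells ran from 4.20 to 5.23 in lung and was at most 0.65 in forestomach, whereas that over 6 markers of squamous epithelium ran from 4.07 to 4.83 in forestomach and stayed below 0 in lung. Forestomach arrays fell apart in 9 markers of glandular stomach, which averaged at most 0.94 on 6 arrays (mice 2, 5, 8, 9, 15 and the first array of mouse 18) and at least 4.60 on the other 13. The share of probes well above background ran from 30.1% to 63.8% over the arrays. At D3, 2 forestomach arrays carried the number 18 and none the number 20. These 2 arrays correlated at 0.773 over all probes, against 0.766 to 0.966 among the 9 other pairs of D3 arrays, and the second lay on slide 5, which held mouse 20 in lung. They were averaged, and the results were also computed with each alone.

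The clearest feature of the fat genes in the forestomach was that 5 animals had high values of fat cell hormones and the others lower ones. The high animals were at D0, D1 and D2. Adipoq was 4.46 in mouse 2 at D0, 3.60 in mouse 8 and 2.81 in mouse 6 at D1, and 4.39 in mouse 15 and 2.32 in mouse 12 at D2. In the other 13 mice it lay between -0.35 and 0.44. The gap between these sets of animals was 1.89 on the log2 scale, and all 4 mice at D3 were in the lower set. Adipoq was well above background on 6 of 19 forestomach arrays.

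Cfd was high in the same 5 forestomachs, at 7.42 in mouse 15, 6.80 in mouse 2, 6.54 in mouse 8, 6.31 in mouse 6 and 5.88 in mouse 12. Mouse 7 had 3.07, and the remaining 12 mice lay at or below 1.10. Retn, which marks white fat cells in mice, had its 5 highest values in these animals too, from 1.69 in mouse 12 to 3.94 in mouse 2, and was at most 0.39 elsewhere. Pck1, which makes the glycerol backbone of triglyceride in fat cells, was 4.49 in mouse 2, 3.25 in mouse 8, 2.53 in mouse 15, 1.89 in mouse 6 and 1.40 in mouse 12, with 1.21 in mouse 11 as the next value. In forestomach 6 genes, counting Adipoq, shared the same 5 top mice, and 10 shared at least 4 of them.

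**Figure D1:**
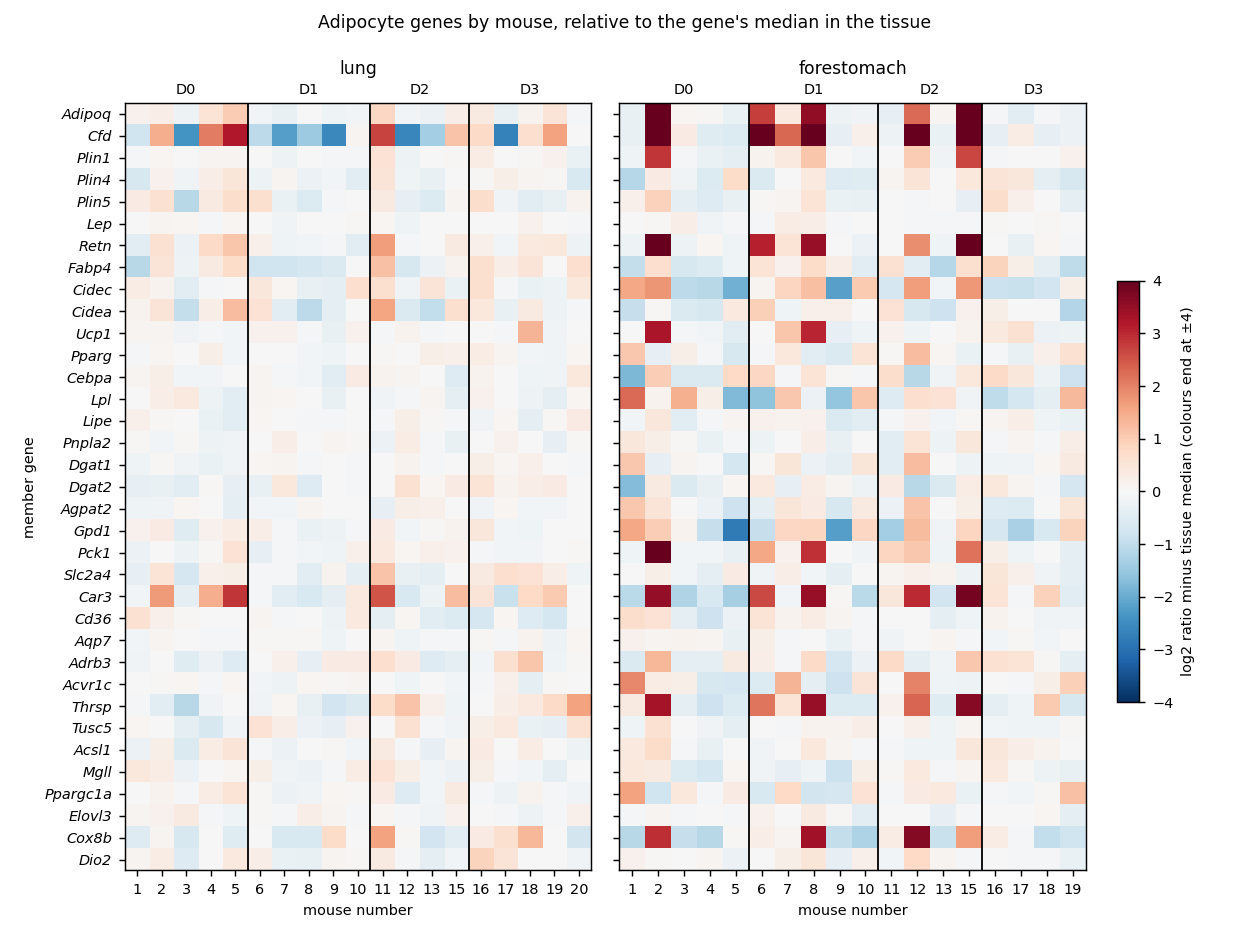
Log2 ratio of each of the 35 genes (rows) in each mouse (columns, grouped by dose from D0 to D3) in lung and forestomach, shown relative to the median of the gene in that tissue, with colours ending at 4 either way. In forestomach the columns of mice 2, 6, 8, 12 and 15 stand out in Adipoq, Cfd, Retn, Pck1, Car3 and Thrsp; in lung the row of Cfd varies most.

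Plin1, the protein that coats the lipid droplet of mature fat cells, was 2.93 in mouse 2, 2.73 in mouse 15, 1.18 in mouse 8 and 1.10 in mouse 12, but only 0.20 in mouse 6, a value within the range of the remaining animals (-0.30 to 0.45). Car3, a carbonic anhydrase that is among the most abundant proteins of white fat and of slow muscle, was 5.02 in mouse 15, 4.73 in mouse 2, 4.69 in mouse 8, 4.20 in mouse 12 and 3.84 in mouse 6. Thrsp followed with 4.50, 4.21, 4.34, 3.19 and 3.00 in the same order of animals. The first array of mouse 18 had 3.83 for Car3 and 3.34 for Thrsp with Adipoq at -0.01 and Cfd at 0.35, whereas the second array had 0.43 and 0.49, so that in this animal both genes were high on an array where the hormones were not. Leptin (Lep) showed no such pattern, but it was well above background on only 8 of 19 forestomach arrays, which limits this reading. Its highest forestomach value was 0.45 and its lowest -0.0027.

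**Figure D2:**
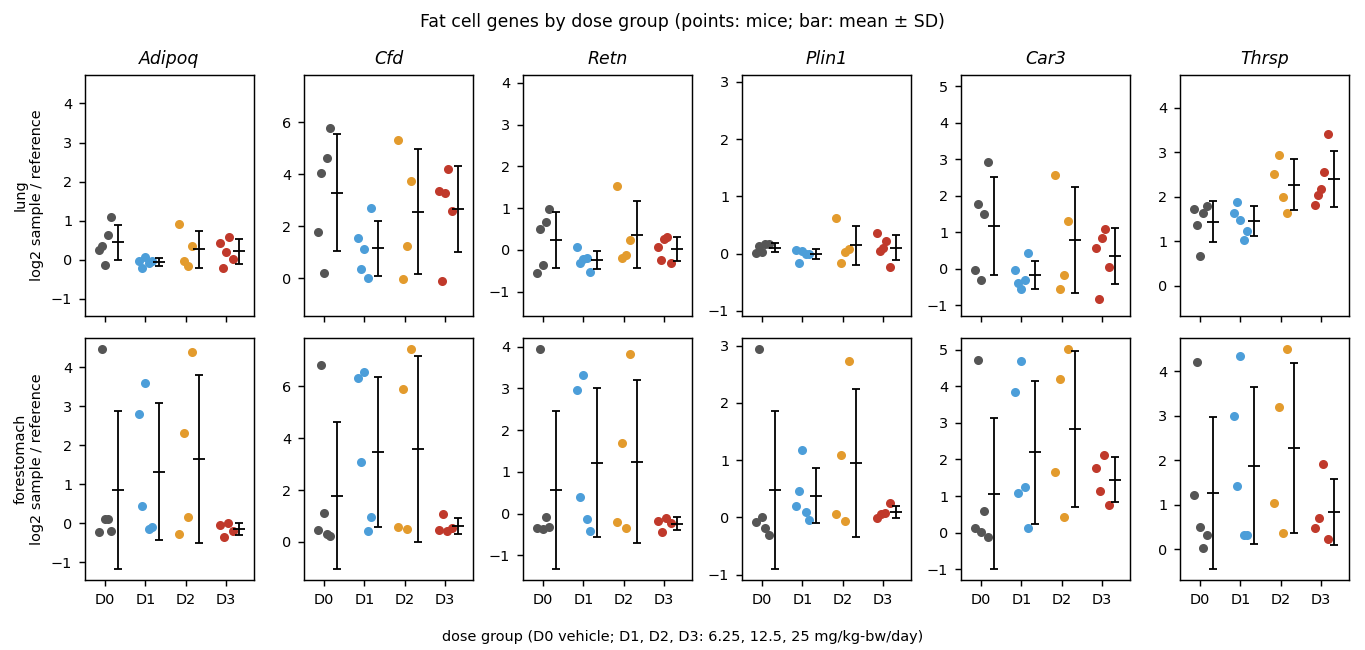
Log2 ratio over the reference of 6 fat cell genes in lung (upper row) and forestomach (lower row) by dose group; points are mice, and bars give the mean and SD of each group. In forestomach 1 mouse at D0, 2 at D1 and 2 at D2 lie far above the others in Adipoq, and none does at D3; in lung Thrsp is the gene whose D3 values (1.80 to 3.40) all lie above those of D0 (0.67 to 1.79).

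Other tissue content moved with some of these animals. The mean of 8 skeletal muscle markers was 2.57 in mouse 12 and 2.30 in mouse 8, against at most 0.66 on the other 17 forestomach arrays. Among the 5 animals with high Adipoq, mice 2, 8 and 15 were also among those low in glandular stomach markers, and mice 6 and 12 were not. The part of these tissues in the values was not tested.

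Among the brown fat genes, Ucp1 was high in 2 forestomachs, at 3.65 in mouse 2 and 3.46 in mouse 8. It was 1.51 in mouse 7, 1.01 in mouse 17 and at most 0.78 in the other 14 mice. Mouse 15, with Adipoq at 4.39, had a Ucp1 of 0.53. In lung the gene was 1.44 in mouse 18 (D3) and lay between -0.22 and 0.25 in the other 18 mice, with 1 of 19 arrays well above background. Cox8b in forestomach was 5.21 in mouse 12, 4.88 in mouse 8, 4.49 in mouse 2 and 3.20 in mouse 15, and at most 1.83 in the others. Mice 12 and 8 were the animals with the highest skeletal muscle markers. In lung its highest values were 4.70 in mouse 11, 4.41 in mouse 18, 3.84 in mouse 9 and 3.73 in mouse 17. The same 4 mice had the highest averages of 8 heart muscle markers, at 3.17, 2.91, 2.27 and 2.45. Elovl3, a fatty acid elongase induced in brown fat by cold, was not well above background on any array of either tissue. Dio2, the enzyme that activates thyroid hormone in brown fat, ran from 0.02 to 1.43 in lung and from -0.39 to 0.71 in forestomach.

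In lung the same hormones varied from mouse to mouse, over a smaller range for Adipoq. Cfd was 5.78 in mouse 5, 4.63 in mouse 4 and 4.04 in mouse 2 at D0, but 1.78 in mouse 1 and 0.20 in mouse 3 of the same group. At D1 it was 2.69 in mouse 10, 1.54 in mouse 6, 1.13 in mouse 8, 0.37 in mouse 7 and 0.0042 in mouse 9. At D2 the values were 5.30 in mouse 11, 3.74 in mouse 15, 1.22 in mouse 13 and -0.02 in mouse 12. At D3 they were 4.21 in mouse 19, 3.34 in mouse 16, 3.27 in mouse 18, 2.59 in mouse 20 and -0.11 in mouse 17. Every dose group thus held low values, and all but D1 held values above 4. Its SD within dose groups, 1.88, was higher than that of 99.995% of all probes in lung.

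Adipoq in lung lay between -0.22 and 1.09 and was well above background on 6 of 19 arrays. Car3 reached 2.91 in mouse 5 and 2.58 in mouse 11, with a median of 0.05, and Retn reached 1.54 in mouse 11 and 0.99 in mouse 5, with a median of -0.12. Plin1 was well above background on 1 of 19 lung arrays. Over all 35 genes the median SD within dose groups was 0.29 in lung and 0.60 in forestomach, against 0.18 and 0.27 for probes well above background on every array of the tissue. Among them, 18 genes in lung and 24 in forestomach had a larger SD than 90% of all probes. Lep, with an SD of 0.08 in lung, and Dgat1, with 0.10, were among the steadiest, although Lep was well above background on only 10 of 19 lung arrays.

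Which genes varied together with Adipoq was examined across mice. In lung, 13 of 34 genes correlated with Adipoq over 19 mice (Pearson's r, two-sided permutation test with 100000 resamples, Benjamini-Hochberg over the 68 relations of both tissues), 11 of them positively. The share of all probes that correlate with Adipoq was not computed, so this count cannot show whether the relation is particular to fat genes. The closest were Car3 (r = 0.918, Spearman's rho = 0.837), Cfd (r = 0.912, rho = 0.889) and Retn (r = 0.845, rho = 0.702), with adjusted permutation p of 3.4e-04, 3.4e-04 and 6.8e-04 for r and 0.00102, 6.8e-04 and 0.0126 for rho. For Car3 and Cfd the unadjusted p of 1e-05 is the smallest that these resamples can give. They were followed by Acsl1 (0.777), which activates fatty acids for storage or burning, Cidea (0.765), Ppargc1a (0.744) and Plin1 (0.718). Gpd1 (0.621), Fabp4 (0.608), Pck1 (0.602) and Plin4 (0.591) also passed. By rank, Pck1 (rho = 0.412, adjusted permutation p = 0.317) and Plin4 (rho = 0.440, adjusted permutation p = 0.259) did not pass, and 11 genes did. Pck1 and Plin1 were each well above background on only 1 of 19 lung arrays, Adipoq itself on 6 and Retn on 8. Many of the values behind these relations were therefore not well above background. Negative relations were found for Agpat2 (r = -0.738, rho = -0.674, adjusted permutation p = 0.00272 and 0.0163), an enzyme of phospholipid and triglyceride synthesis, and for Pnpla2 (r = -0.712, rho = -0.744, adjusted permutation p = 0.00544 and 0.00762), the lipase that starts the breakdown of stored fat. The next lowest r was that of Lipe (-0.546), which did not pass (adjusted permutation p = 0.0716).

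Without mice 5 and 11, the 2 farthest from the median of Adipoq, 6 of the 13 relations still passed over 17 mice, those of Cfd (r = 0.878), Car3 (0.826), Pnpla2 (-0.732), Retn (0.713), Plin1 (0.682) and Acsl1 (0.658). The relations of Cidea (0.564), Ppargc1a (0.556), Gpd1 (0.519), Agpat2 (-0.493) and Fabp4 (0.411) kept their direction but did not pass over these fewer mice. Those of Plin4 (0.292) and Pck1 (0.131) were the weakest without the 2 animals. Within scan days the r of Cfd with Adipoq was 0.948 (7 mice) and 0.936 (8 mice), and that of Pnpla2 was -0.849 and -0.791. The 4 mice of the remaining day were too few for a value. With Cfd as the reference gene, a choice made after seeing the data, 15 of 34 genes passed, led by Car3 (r = 0.948, rho = 0.970). The share over all probes was not computed here either. Pparg, the master regulator of fat cell formation, had an r of 0.0012 with Adipoq in lung (rho = 0.014, adjusted permutation p = 0.996).

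**Figure D3:**
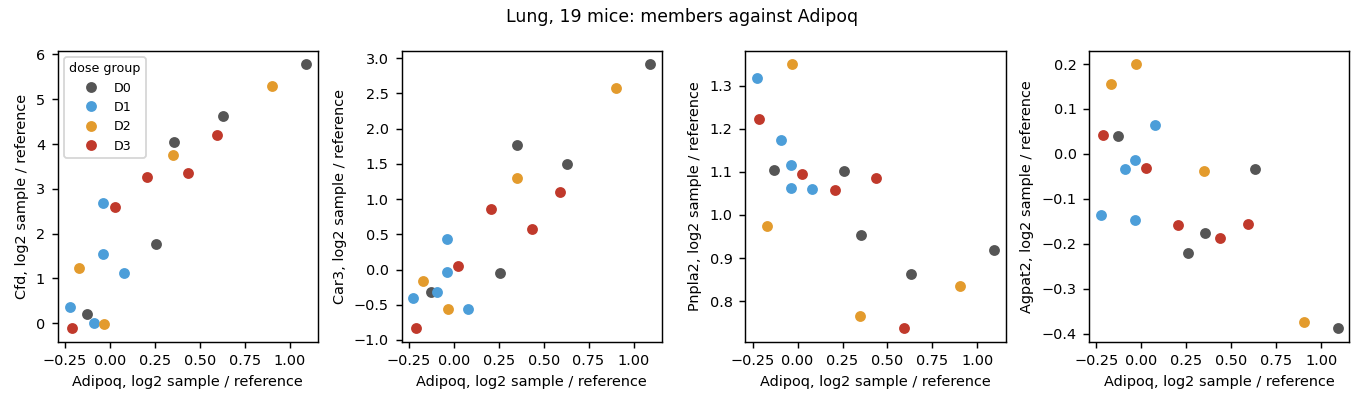
Log2 ratios over the reference in lung of Cfd, Car3, Pnpla2 and Agpat2 (vertical axes) against that of Adipoq (horizontal axes) in 19 mice, coloured by dose group. Cfd and Car3 rise with Adipoq (r = 0.912 and 0.918), and Pnpla2 and Agpat2 fall (r = -0.712 and -0.738); mice of D0 and D2 reach the highest Adipoq values.

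In forestomach the 5 mice with high Adipoq formed a cluster of their own, so no r was taken over all 18. Within the other 13 mice, 0 of 34 genes passed. These mice were set apart by their low Adipoq, which lay between -0.35 and 0.44 in them. Adipoq was well above background on only 6 forestomach arrays of all mice, so most of these 13 gave little signal for it. The count of 0 therefore cannot decide whether genes varied together with Adipoq in forestomach. The highest r belonged to Retn (0.666), Cfd (0.601) and Dio2 (0.551), and the lowest to Acsl1 (-0.441), Mgll (-0.357) and Cd36 (-0.305). The smallest adjusted permutation p, that of Retn, was 0.0723, and its r was 0.018 without the 2 mice farthest from the median.

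Values in the lung and forestomach of the same animal were also compared. Adipoq, Cfd and Lep fell into separate clusters of mice in forestomach and were left out of this test. Over 18 mice, 0 of 32 genes without separate clusters in either tissue passed the permutation test after adjustment, and the highest r were those of Mgll (r = 0.567, rho = 0.608), a lipase of the last step of fat breakdown, and Cidea (r = 0.536, rho = 0.554), both with an adjusted permutation p of 0.364 for r. Of the 5 animals with high Adipoq in forestomach, lung Cfd was 4.04 in mouse 2 and 3.74 in mouse 15, but 1.54 in mouse 6, 1.13 in mouse 8 and -0.02 in mouse 12. Mice 5 and 11, with the highest Cfd in lung, had 0.24 and 0.56 in forestomach.

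A different set of genes was higher on the forestomach arrays rich in glandular stomach markers. Lpl, lipoprotein lipase, had a median of 0.77 on the 13 arrays high in these markers and -0.78 on the 6 low ones. Ppargc1a, a coactivator of mitochondrial genes, had medians of 1.00 and -0.08. Acvr1c, an activin receptor, had 1.05 and 0.29, Gpd1 had 2.09 and 1.29, and Pparg had 2.11 and 1.48. For each of these genes the ranges of the array sets overlapped. Adipoq was among the genes that went the other way, with medians of 0.02 and 1.79. So were Cfd (0.56 and 3.49), Car3 (0.75 and 4.26) and Thrsp (0.50 and 3.78). The arrays were divided by the markers and not by dose, and these values are a description without a test.

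To determine whether DBahA altered the fat genes, the treated groups were each set against D0. limma, fitted to all 55681 probes with calls at an adjusted p of at most 0.05 and a fold change of at least 1.5, called 0 of the 35 genes in lung at D1, D2 and D3, where 0.14%, 0.264% and 0.639% of all probes were called. In forestomach it called 0 of the 35 genes at each dose, where 0% of all probes were called. At an unadjusted p under 0.05 the counts were 4, 3 and 5 genes in lung and 0 at each dose in forestomach. The median log2 fold change of the genes was -0.08, 0.0023 and 0.01 in lung and 0.07, 0.17 and -0.02 in forestomach, and the medians over all probes lay between -0.0025 and 0.0026. At D3, 19 genes were higher and 16 lower in lung, and 15 were higher and 20 lower in forestomach.

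Thrsp, which promotes fatty acid synthesis in lipogenic tissues, had the largest difference in lung at D3. At D0 it was 1.72, 1.37, 0.67, 1.64 and 1.79 in mice 1 to 5, and at D3 1.80, 2.04, 2.17, 2.55 and 3.40 in mice 16 to 20. The groups did not overlap, although the highest control and the lowest treated animal differed by less than 0.01. The log2 fold change was 0.96 (limma, SE 0.28, adjusted p = 0.113), which was not called. With slide as a block it was 1.05 (adjusted p = 0.0245) and with scan day as a block 1.02 (adjusted p = 0.0286), and these were the only settings under which any of the genes was called against D0. Within the 4 slides that held both groups, Thrsp was higher at D3 in each, by 0.68 to 1.65. It was also higher at D2, by 0.83. In forestomach the difference at D3 was -0.42 (SE 0.99), and 0.31 (SE 0.90) without control mouse 2.

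Dgat2, an enzyme of the last step of triglyceride synthesis, had the smallest adjusted p in lung at D3. It was -1.37, -1.34, -1.49, -0.97 and -1.35 in the 5 controls and -0.48, -0.88, -0.77, -0.70 and -1.04 at D3, so that 1 control overlapped the treated animals. The log2 fold change was 0.53 (limma, SE 0.15, adjusted p = 0.104). Cd36 was 4.51, 4.10, 3.96, 3.90 and 3.93 at D0 and 3.24, 3.97, 3.40, 3.20 and 3.90 at D3, a difference of -0.54 (SE 0.16, adjusted p = 0.133). Car3 (-0.82, SE 0.57) and Cfd (-0.63, SE 1.02) had larger differences with larger errors and adjusted p of 0.657 and 0.885. That of Car3 was -1.19 without D0 mouse 3 and -0.38 without D0 mouse 5, and that of Cfd turned to 0.07 without D3 mouse 17. Of the other genes at D3 in lung, Fabp4 differed from D0 by 0.37 (SE 0.31), Ucp1 by 0.26 (SE 0.20; -0.02 without D3 mouse 18), Adipoq by -0.23 (SE 0.20) and Ppargc1a by -0.25 (SE 0.14). Pparg (0.01), Lep (-0.03) and Plin1 (0.0023) lay closer to 0, and none of these was called. At D1 the difference of Cfd from D0 was -2.14 (SE 1.02), also not called.

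**Figure D4:**
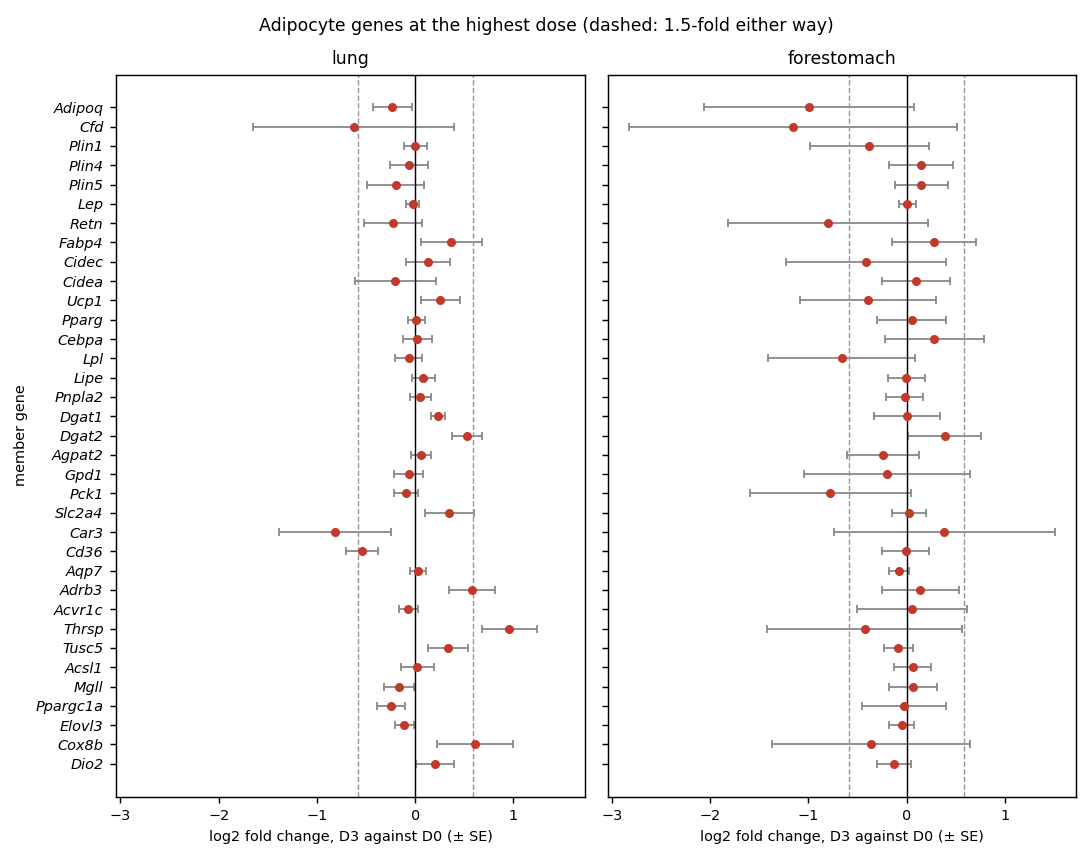
Log2 fold change at D3 against D0 with its SE (limma) for the 35 genes in lung and forestomach; dashed lines mark a 1.5-fold change either way. No gene was called in either tissue, and the widest errors belong to the genes that are high in single forestomachs, such as Cfd (SE 1.67) and Adipoq (SE 1.07).

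In forestomach the largest differences at D3 were those of Cfd (-1.16, SE 1.67), Adipoq (-0.99, SE 1.07) and Retn (-0.80, SE 1.02), each lower than the D0 mean in 4 of 4 mice (limma, adjusted p = 1.00 for each). These 3 rest on control mouse 2. The differences of Ucp1 (-0.39), Plin1 (-0.38), Car3 (0.38), Fabp4 (0.27), Pparg (0.05), Ppargc1a (-0.03) and Lep (0.0079) were smaller and not called either. Without mouse 2 the differences were 0.10 for Cfd, -0.09 for Adipoq and 0.04 for Retn. Those of Ucp1 and Plin1 then turned to 0.29 and 0.24, that of Car3 was 1.30 (SE 0.98), that of Fabp4 0.52 and that of Ppargc1a -0.30, and none of the 35 genes was called. Whether the response at D3 differed between lung and forestomach was tested in 1 fit over both tissues, and limma called 0 of the 35 genes for this difference, where 0.172% of all probes were called, with 0 at an unadjusted p under 0.05. The largest differences of the responses were those of Thrsp (1.38, SE 1.03) and Car3 (-1.20, SE 1.29). Without control mouse 2 they were 0.64 and -2.12, with the first array of mouse 18 alone 1.02 and -1.62, and with the second alone 1.74 and -0.78.

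To see how the genes are set in the untreated tissues, lung was compared with forestomach at D0. The mean of the 9 glandular stomach markers ran from 0.58 to 6.48 over the D0 forestomach arrays, so glandular stomach is part of these values. Among the genes found lower in lung, Pparg, Acvr1c and Ppargc1a had higher medians on arrays rich in these markers, as given above. By less, so had Slc2a4 (5.41 against 5.23 on the low arrays) and Agpat2 (0.58 against 0.54). The medians of Dgat2 (4.59 against 5.17), Fabp4 (5.62 against 6.53), Cidea (5.48 against 6.03), Plin4 (1.54 against 2.05) and Acsl1 (2.00 against 2.30) were lower on the rich arrays. The part of glandular stomach in the tissue differences was not tested. limma called 13 of the 35 genes, where 16.2% of all probes were called. Of these, 10 were lower in lung, where 7.6% of all probes were called lower, and 3 were higher, where 8.62% of all probes were called higher. In this comparison the median over the 35 genes was -0.11 and over all probes -0.01.

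The 10 genes lower in lung were 3 of synthesis (Dgat2, Acsl1, Agpat2), 2 of the lipid droplet (Cidea, Plin4), 2 of uptake (Slc2a4, Fabp4) and 3 regulators (Pparg, Acvr1c, Ppargc1a), and the 3 higher in lung were Cd36 of uptake, Plin5 of the droplet and Dio2 of brown fat. Dgat2 was -1.37, -1.34, -1.49, -0.97 and -1.35 in the lungs and 3.18, 5.27, 4.34, 4.62 and 4.98 in the forestomachs of mice 1 to 5, a difference of -5.78 (limma, SE 0.28, adjusted p = 5.08e-18). Slc2a4, the insulin-responsive glucose transporter of fat and muscle, ran from 0.08 to 1.30 in the lungs and from 4.99 to 5.71 in the forestomachs, a difference of -4.66 (SE 0.23, adjusted p = 1.17e-17). Fabp4, the fatty acid binding protein of fat cells, was 0.65, 2.27, 1.56, 2.13 and 2.49 in lung and 5.11, 6.75, 5.44, 5.53 and 5.91 in forestomach, a difference of -3.93 (SE 0.38). Cidea, a lipid droplet protein, differed by -3.15 (SE 0.40) and Plin4, another droplet coat protein, by -2.45 (SE 0.27). For these 5 genes the tissues did not overlap.

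The other genes lower in lung were Acsl1 (-1.27), Pparg (-1.14), Acvr1c (-1.06), Ppargc1a (-0.88) and Agpat2 (-0.85), with adjusted p from 9.01e-07 (Acsl1) to 0.0375 (Acvr1c). Acvr1c was well above background on 0 of 5 D0 lung and 3 of 5 D0 forestomach arrays. Its mean forestomach signal lay 1.66-fold above the detection floor taken for the lung arrays. That mean includes forestomach arrays not well above background, so the size of the difference is uncertain. Its second probe differed by -0.80 and was not called, and the second probe of Ppargc1a (-0.18) was not called either. Cd36 was the gene most in excess in lung, at 3.90 to 4.51 against -0.20 to 1.35, a difference of 3.47 (limma, SE 0.20, adjusted p = 1.41e-15). Plin5, which tethers lipid droplets to mitochondria, was higher by 1.66 (SE 0.29) and Dio2 by 0.65 (SE 0.19), with overlapping ranges. The calls of Acvr1c and Ppargc1a were lost in 8 and 6 of the 10 fits without 1 control array, that of Agpat2 without the forestomach of mouse 1, which gave -0.61, and that of Dio2 without the lung of mouse 5, which gave 0.56. Under median centring in place of loess, 7 genes were called, 2 higher and 5 lower in lung.

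**Figure D5:**
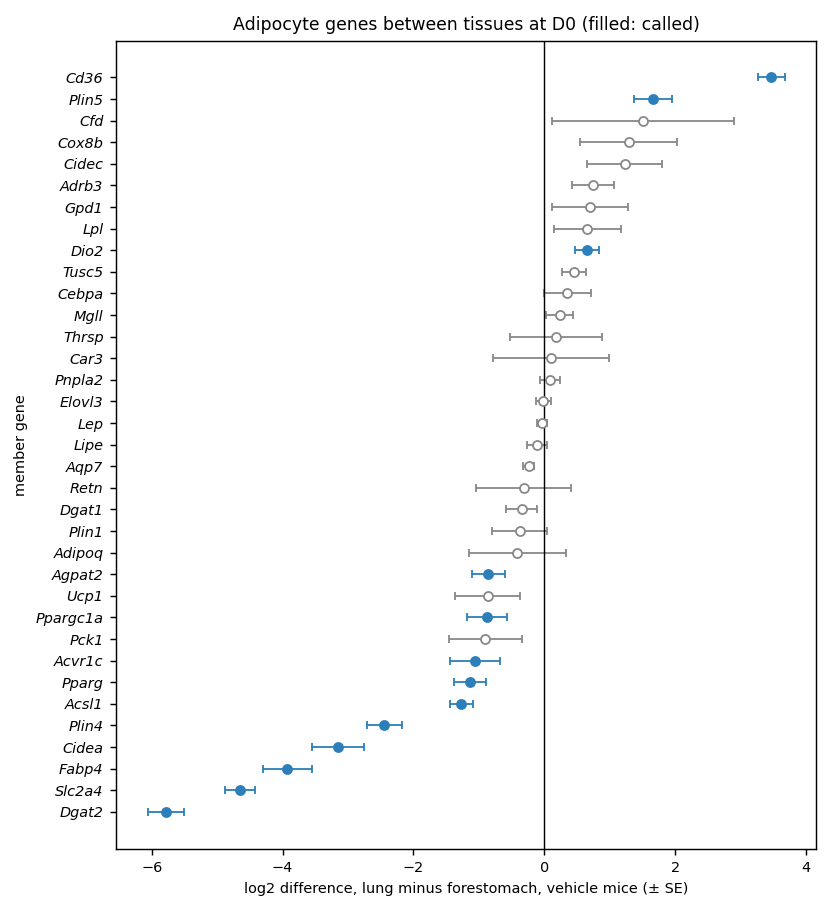
Log2 difference of lung minus forestomach in the 5 vehicle mice with its SE (limma) for the 35 genes in order of size; filled points mark the 13 genes called. Dgat2, Slc2a4, Fabp4 and Cidea lie at the lower end (-5.78 to -3.15) and Cd36 at the upper end (3.47), whereas the fat cell hormones Adipoq, Lep and Retn lie near 0 and Cfd at 1.51 with an SE of 1.39. Adipoq, Lep and Retn were not well above background on most D0 forestomach arrays.

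The defining products of white fat cells did not pass in this comparison. Of 5 D0 arrays each in lung and forestomach, Adipoq and Retn were well above background on 3 and 1. Lep was so on 2 and 2, and Plin1 on 0 and 1. Small differences of these genes therefore do not show equal levels. Adipoq differed by -0.41 (SE 0.74), Retn by -0.32 (SE 0.72), Plin1 by -0.38 (SE 0.42), Lep by -0.03 (SE 0.07) and Cfd by 1.51 (SE 1.39). Without the forestomach of mouse 2, the control with high fat cell genes, Adipoq (0.49), Retn (0.53) and Plin1 (0.24) turned to the other direction and Cfd was at 2.76 (SE 1.34), all still uncalled. In that fit 16 genes were called in place of 13, with Adrb3, Cidec, Cox8b and Tusc5 added as higher in lung and Acvr1c lost. Uncalled genes of fat breakdown were Lipe (-0.11), Pnpla2 (0.08), Mgll (0.23) and Adrb3, the adrenergic receptor of fat cells (0.74). Also uncalled were Cebpa (0.35), Lpl (0.66), Cox8b (1.29), Cidec (1.23), Gpd1 (0.69), Dgat1 (-0.35), Pck1 (-0.90), Ucp1 (-0.87), Thrsp (0.18), Car3 (0.10), Tusc5, a regulator of Slc2a4 traffic now named Trarg1 (0.45), and Elovl3 (-0.02). Aqp7, the glycerol channel of fat cells, differed by -0.24 with an adjusted p of 0.0383, under the fold threshold.

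A further 50 genes of fat cells and lipid handling were followed beside the 35. In lung 0 of them were called at D1, 1 at D2 and 3 at D3, beside the 0.14%, 0.264% and 0.639% of all probes, with 7, 6 and 9 at an unadjusted p under 0.05. In forestomach 0 were called at each dose by limma, as of all probes, with 1, 1 and 0 at an unadjusted p under 0.05. Sncg, gamma-synuclein, which is abundant in white fat and neurons, rose in lung from 1.07 ± 0.39 at D0 (mean ± SD, n = 5) to 1.90 ± 0.13 at D2 (n = 4) and 1.97 ± 0.15 at D3 (n = 5), by 0.83 and 0.89 (limma, adjusted p = 0.0138 and 0.00222). Its highest control value, 1.52, was below the lowest value at D3, 1.78. Cebpb, an early factor of fat cell formation that also acts in inflammation, fell from 0.66 ± 0.14 to 0.06 ± 0.10 (limma, log2 fold change -0.60, SE 0.11, adjusted p = 0.00395). Gpihbp1, which anchors Lpl to the capillary wall, fell from 5.32 ± 0.34 to 3.96 ± 0.27 (limma, log2 fold change -1.36, SE 0.23, adjusted p = 0.0029), without overlap. These calls were lost under median centring and with the Feature Extraction log ratio, that of Cebpb also with the deposited table (-0.58), without D0 mouse 2 (-0.55) or without D3 mouse 20 (-0.56), and that of Sncg at D2 without D2 mouse 15 (0.81) and with the 2 groups alone (0.83). Lpl itself was at -0.07 (SE 0.14) in this comparison. In forestomach the 2 largest differences at D3 were those of Prdm16 (0.80) and Scd1 (-0.56), neither called. Between the untreated tissues 25 of the 50 genes were called, 13 higher and 12 lower in lung, where 16.2% of all probes were called, 8.62% higher and 7.6% lower.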

How the data were processed

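Total RNA of lung and forestomach was measured on 38 dual-colour Agilent arrays, 19 per tissue, with all samples labelled with Cy5 and no dye swap. The authors deposited scanner files made with Feature Extraction 10.7.3.1, which hold the median intensity of each spot and of its background on a linear scale, not normalized. The log10 ratio in the same files was, per the file headers, computed by Feature Extraction after background subtraction and dye normalization. Log2 ratios per probe, deposited by the authors as a second product, had slopes of 0.990 to 0.998 against the values used here.

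Following the study's methods, median intensities entered a loess fit on each array, with no background subtracted, in limma 3.58.1 (R 4.3.3). Control spots were left out and spots of a probe averaged, which left 55681 probes, and 372 values were empty after outlier spots were removed. The precision is limited by the number of arrays. Symbols came from RefSeq (GRCm38.p6) by accession. Each of the 35 genes had a probe, 28 of them 1 probe only, and no filter on low values was applied. Where a gene had several probes the brightest, by mean Cy5 over all arrays, was used.

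limma was fitted to all dose groups of a tissue, and for the tissue comparisons to all arrays, with Benjamini-Hochberg adjustment over all probes. MAANOVA was not used. Mouse 18's 2 forestomach arrays were averaged. Lung and forestomach arrays of 18 mice came from the same animals per the labels. Their deviations from the group means correlated between 0.075 and 0.249 over all probes (median 0.186). Correlations were tested in Python 3.11.15 with scipy 1.17.1 and 100000 permutations. Genes were treated as falling into separate clusters of mice where the largest gap exceeded the range divided by 3, with at least 3 mice on each side, a rule set after seeing the data. Tests were tried on simulated data. The listed genes, the further lists and the rules were chosen with earlier results of these data known. The rule for the genes named was all 35, with values for the main hormones and regulators, the 3 largest changes at D3, the 5 largest tissue differences and the 3 highest and lowest correlations. Dgat2 and Cd36 in lung at D3 were added after their values were seen. Alternatives were another background correction, centring, the 2 other ratios, a filter on dim probes, slide, scan day or mouse as a block, mouse 18, and leaving out mice.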

Additional observations from a re-analysis of the deposited data

Results flagged for a closer look

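In 96 dose groups of 12 genes, 13 held a sample far from the others by Dixon's test of the gap over the range, which flags about 1 group in 20 by chance. Of these, 8 were control mouse 2 in forestomach, with Adipoq at 4.46 (others at most 0.12), Cfd at 6.80 (1.10), Retn at 3.94 (-0.09), Plin1 at 2.93 (0.0091), Ucp1 at 3.65 (0.41), Car3 at 4.73 (0.58), Thrsp at 4.21 (1.22) and Cox8b at 4.49 (1.59). Lung of D3 mouse 18 stood apart in Ucp1 at 1.44 (others at most 0.11) and in Lep at 0.25 (at most 0.10). The other groups were Cfd in forestomach of D3 mouse 17 at 1.08 (at most 0.53), Ppargc1a in forestomach of D3 mouse 19 at 1.80 (at most 0.67) and Fabp4 in lung of D1 mouse 10 at 1.77 (at most 1.19). None of the 12 genes moved one way in every lung and the other way in every forestomach of a dose group.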

How the results depend on the processing

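The 0 calls against D0 held under every alternative run at D1 and D2 in lung, at each dose in forestomach and for the difference of the D3 responses, leaving out each mouse included (0 to 0). In lung at D3 the count became 1 (Thrsp) when slide was a block, and 1 when scan day was, and stayed 0 when any mouse was left out. The 13 calls between the tissues were 13 with mouse as a fixed or random replicate block, 7 under median centring and 11 to 16 without 1 mouse. The pairing by mouse changed no call. Median centring moved probes well above background on all arrays by 0.46 in this comparison, against -0.05 with loess, and left Cd36, Plin5, Dgat2, Slc2a4, Fabp4, Cidea and Plin4 called.

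In forestomach at D3 the difference of Cfd was 0.025 and that of Retn 0.0052 without the arrays low in glandular stomach markers, and over the fits without 1 mouse they ran from -1.54 to 0.10 and from -1.03 to 0.043. Cfd in lung at D3 ran from -1.40 to 0.066. In lung 6 in place of 13 correlations with Adipoq passed without the 2 farthest mice, and 9 under median centring, 6 of them shared, whereas 17 passed with dose-centred and 19 with scan-day-centred values. In forestomach 1 (Retn) passed with dose-centred values and 3 (Cfd, Ucp1, Dio2) with scan-day-centred values, an alternative chosen after seeing the data. Between tissues 1 gene (Cidea) passed with dose-centred values and 15 under median centring. The causes were not tested. Of the further fat genes, the D3 calls of Sncg, Cebpb and Gpihbp1 in lung were lost under median centring (0.64, -0.06 and -0.74) and with the Feature Extraction log ratio (0.60, -0.53 and -1.13).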
